A study of Homo sapiens with 4 samples.

Results

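The integrated stress response genes described here are ATF4 and 9 genes known to be induced through it, DDIT3, TRIB3, CHAC1, ASNS, SESN2, PPP1R15A, PSAT1, PHGDH and DDIT4. They were taken by name, as 10 of the 58243 genes in each table, and all 10 had enough counts to be tested. The libraries came from SH-SY5Y, an established line grown from a human neuroblastoma. The control group held 2 libraries of untreated cells, and the SNP group held 2 libraries of cells exposed for 8 h to sodium nitroprusside (SNP), which releases nitric oxide. Within each group the libraries are called a and b. In both groups cells were left to settle for 24 h after seeding; the treatment protocol speaks of cells differentiated with retinoic acid and of several SNP doses, the growth protocol mentions no retinoic acid, and the dose that was sequenced is not given. The labels call the RNA of the SNP group oxidized. The protocol repeats each treatment within 1 experiment, but nothing says that libraries a and b came from separate cultures, so the p-values measure the spread between these libraries, which may be technical.

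In the integrated stress response, kinases that sense unfolded protein, amino acid shortage, viral RNA or haem loss phosphorylate the initiation factor eIF2, which lowers protein synthesis in general. Short upstream reading frames let the ATF4 mRNA be translated under that condition, so the amount of ATF4 protein can change without a change in its mRNA. ATF4 is a bZIP transcription factor that binds composite C/EBP-ATF sites and drives genes for amino acid supply, redox defence and, through CHOP (the protein of DDIT3), cell death. RNA sequencing reads the mRNA level only.

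After SNP, PPP1R15A rose 1.83-fold. A pair of genes fell, CHAC1 by 1.32 and PSAT1 by 0.56 on the log2 scale. The other 7, among them ATF4 and DDIT3, did not pass. This made 3 of 10 called at an adjusted p under 0.05, against 26.2% of the 14759 genes tested; 1 of 10 was higher against 13.6%, and 2 of 10 were lower against 12.6%, so the share of members called was near that of all genes. The median log2 fold change of the 10 was 0.053, against -0.0042 for all genes tested. With libraries scaled by the read totals that the RPKM values imply, 6 members were called, 4 higher and 2 lower, and among all genes 63.1% of the calls were higher in place of 51.9%.

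The proximal promoters of 3 members held a short motif linked to this pathway, and they are shown because these are ASNS, whose control libraries lay far apart, and CHAC1 and PPP1R15A, whose mRNAs moved in opposite directions. The sequences are from RefSeq (GRCh38.p14) and cover the 250 bases before the annotated start, 5′ to 3′ on the gene's own strand. All 10 members matched the table, with 15 start sites between them, and windows of 250 bases before to 50 after each start were searched on both strands for TGATGNAA, the core of the C/EBP-ATF response element, and TGACGTCA, the cAMP response element. No match shown belongs to both motifs. Capitals mark the match. The ASNS window is chr7:97872409-97872658, minus strand, with the match starting at position -68 from the start. The CHAC1 window is chr15:40953221-40953470, plus strand, where the core lies on the opposite strand with its first printed base at -209. The PPP1R15A window is chr19:48872171-48872420, plus strand, with the cAMP response element at -58.
ASNS: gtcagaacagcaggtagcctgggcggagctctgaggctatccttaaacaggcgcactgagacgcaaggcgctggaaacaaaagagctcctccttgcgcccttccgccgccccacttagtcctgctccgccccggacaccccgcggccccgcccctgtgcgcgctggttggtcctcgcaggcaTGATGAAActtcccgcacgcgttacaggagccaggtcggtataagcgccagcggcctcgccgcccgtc
CHAC1: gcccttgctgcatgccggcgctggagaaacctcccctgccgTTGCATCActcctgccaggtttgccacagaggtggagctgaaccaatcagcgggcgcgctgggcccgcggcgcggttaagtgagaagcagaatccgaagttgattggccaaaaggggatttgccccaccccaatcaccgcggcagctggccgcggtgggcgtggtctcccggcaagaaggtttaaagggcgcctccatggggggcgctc
PPP1R15A: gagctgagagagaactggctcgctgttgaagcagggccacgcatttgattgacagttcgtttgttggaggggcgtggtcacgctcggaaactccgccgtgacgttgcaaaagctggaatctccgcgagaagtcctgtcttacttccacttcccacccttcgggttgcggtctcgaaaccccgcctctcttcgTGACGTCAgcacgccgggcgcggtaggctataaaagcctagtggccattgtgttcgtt

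TGATGNAA was present in 3.62% of all 35116 windows and near at least 1 start of 4.46% of 27305 genes; TGACGTCA was present in 1.85% of windows and 2.25% of genes. Neither string was found in the windows of the other 7 members, which says only that these letters are not in those windows. Of the other pathway genes described further on, 55 matched the promoter table, and TGATGNAA was found near 14 of them (25.5%) and TGACGTCA near 0. Among the 13 of these 14 that were tested, 6 rose, namely PPP1R15B, ATF3, CEBPG, SLC3A2, AARS and NARS, and 3 fell, namely SLC7A1, SLC1A4 and SLC1A5. Among the 41 tested genes without it, 12 rose and 4 fell. Of all genes tested, 13.6% rose and 12.6% fell. Pathway genes that did not match the promoter table are in neither count, and some of those were called. A difference between genes with and without the string was not tested. A match describes the letters and is not evidence of binding.

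The summed gene counts lay between 5613144 and 8056550 per library. By these totals, before TMM scaling, 3 counts correspond to 0.372 to 0.534 CPM (read counts scaled to library size). All other CPM values are after TMM scaling. Log2 CPM correlated at 0.982 between the control libraries, 0.984 between the SNP libraries and 0.958 to 0.963 between control and SNP libraries. The count of genes called across the transcriptome fell from 3861 to 2482 without control a and to 2447 without control b. Of 10 markers of adrenergic neuroblastoma, 9 were well counted and TH was listed at 0 in all 4 libraries; their summed level was 2774 and 2850 CPM in control and 2247 and 2358 CPM in SNP libraries, with 2 higher and 4 lower. Among 14 markers of other cells, PTPRC, CD3E, KRT5, MBP and AQP4 were at 0 throughout, the leukocyte, epithelial and glial lists summed to at most 2.16 CPM in any library, and the 4 fibroblast or mesenchymal markers summed to 47.0 and 38.5 CPM in control and 62.6 and 63.0 CPM in SNP libraries. Of these 4, COL3A1 rose by 0.68 and COL1A2 fell by 1.67 on the log2 scale, the latter called in 10 of 13 alternatives and not without control a, SNP a or SNP b; DCN did not pass and COL1A1 was not tested. The part of these differences in the results was not tested. Fewer cells of a type and less RNA per cell cannot be told apart in such bulk libraries. Across 14724 genes, which are not independent, the log2 fold change had a Spearman correlation of 0.480 with the guanine minus cytosine content of the transcripts. That content is therefore given below, for some of the members and lists, as a percentile among the genes tested.

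**Figure D1:**
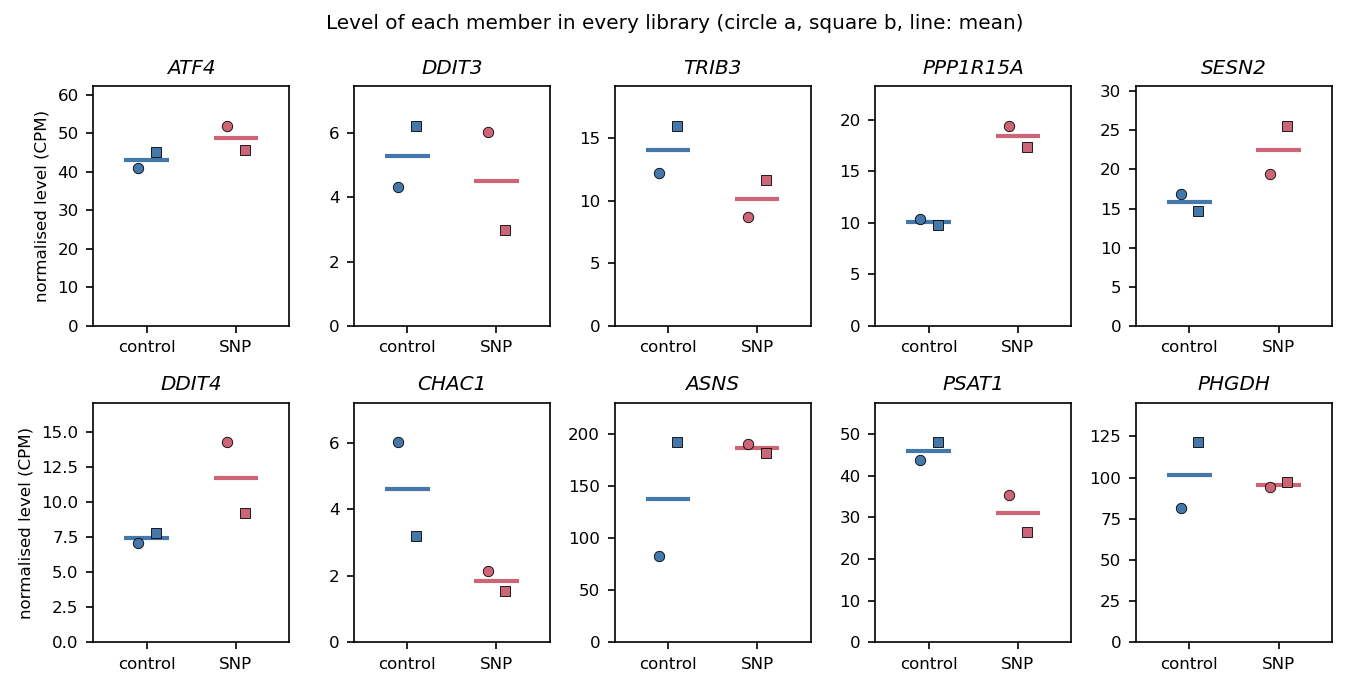
Normalised level (CPM, linear axes from 0) of each member in the 2 control and 2 SNP libraries, circles for library a, squares for library b and lines for group means. PPP1R15A shows 2 tight, separate groups, while the ASNS control libraries sit at 83.1 and 192 CPM, the latter level with the SNP libraries.

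ATF4 (ENSG00000128272; chromosome 22, 39519695 to 39522685, plus strand; 3 merged exons; positions of all members are GRCh38, taken from GENCODE 29) encodes the transcription factor at the centre of the pathway. It was counted 265 and 254 times in control a and b and 412 and 352 times in SNP a and b, or 40.9 and 45.1 CPM against 51.9 and 45.6 CPM. Both SNP values lay above both control values, but control b and SNP b were nearly equal. The log2 fold change was 0.18 (SE 0.135; adjusted p = 0.342), so no change of ATF4 mRNA was detected, and none of the 15 alternative analyses called it; their log2 fold changes lay between 0.088 and 0.30. All 4 pseudogenes named after ATF4 were listed at 0.

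DDIT3 (ENSG00000175197; chromosome 12, 57516588 to 57521737, minus strand) encodes CHOP, the bZIP protein that ATF4 induces and that takes part in stress-induced death. Its counts were 28 and 35 without and 48 and 23 with SNP, or 4.32 and 6.21 CPM against 6.04 and 2.98 CPM. The groups overlapped, with SNP a near the higher control and SNP b below all other libraries. Its log2 fold change of -0.21 (SE 0.374; adjusted p = 0.725) did not pass, and it was 0.066 without control b and 0.21 without SNP b. DDIT3 shares 355 of its 1307 exonic bases with MARS and 58 with MBD6, both on the opposite strand, and the use of strand in the counting is not stated. It also shares 105 with AC022506.1 on the same strand, for which no counts were available. The level of DDIT3 is therefore uncertain, also since MARS had between 897 and 1295 counts.

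PPP1R15A (ENSG00000087074; chromosome 19, 48872392 to 48876057, plus strand; 2 merged exons) encodes GADD34, the regulatory subunit that directs a phosphatase to eIF2 and so ends the response. It was counted 67 and 55 times in control and 154 and 134 times in SNP libraries. The levels were 10.3 and 9.76 CPM in control and 19.4 and 17.4 CPM in SNP libraries, and the groups were well apart. The group means were 10.05 ± 0.402 and 18.4 ± 1.42 CPM (SD, n = 2 each), a log2 fold change of 0.87 (SE 0.208; adjusted p = 0.0037) at percentile 95.2 of all genes tested. It was the 1 member called in all 15 alternative analyses, with log2 fold changes between 0.79 and 0.98 and adjusted p between 6.6e-04 and 0.0274. Its guanine minus cytosine content was at percentile 45.9, and with composition offsets (for length, GC and the ratio of guanine to cytosine) its log2 fold change was 0.92.

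SESN2 (ENSG00000130766; chromosome 1, 28259527 to 28282491, plus strand) encodes sestrin 2, which restrains the growth kinase mTORC1 when leucine is scarce and is also known as a p53 and NRF2 target. It had 16.8 and 14.7 CPM in control and 19.4 and 25.5 CPM in SNP libraries, from 109, 83, 154 and 197 counts. Both SNP values were higher than both control values, and the SNP libraries were further apart than the control libraries. SESN2, whose guanine minus cytosine content was at percentile 19.4, had a log2 fold change of 0.51 (SE 0.194, adjusted p = 0.058), just outside the threshold. It passed in 6 of 15 alternatives, among them the fit without SNP a, where it reached 0.69 at an adjusted p of 0.0117, and the fit with composition offsets, 0.70 at 0.0113. It was 0.30 at an adjusted p of 0.311 without SNP b and 0.42 at 0.284 without control b; over all alternatives the adjusted p ranged from 0.0113 to 0.311.

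DDIT4 (ENSG00000168209; chromosome 10, 72273920 to 72276036, plus strand) encodes REDD1, an inhibitor of mTORC1 signalling that is also induced by hypoxia and glucocorticoids. Its levels were 7.09 and 7.81 CPM in control and 14.2 and 9.21 CPM in SNP libraries, from 46, 44, 113 and 71 counts. SNP a stood above the other 3 libraries, and SNP b was closer to the controls than to SNP a. DDIT4 had a log2 fold change of 0.66 (SE 0.265; adjusted p = 0.0721) and passed in 4 of 15 alternatives; it was 0.94 without SNP b, where the adjusted p was 0.0106, and 0.31 without SNP a, where it was 0.550, which are also the ends of the range over its alternatives. The guanine minus cytosine content of DDIT4 was at percentile 87.1, and with composition offsets its log2 fold change was 0.56 at an adjusted p of 0.163. DDIT4-AS1, which overlaps 847 of the exonic bases of DDIT4 on the opposite strand, was listed at 0.

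TRIB3 (ENSG00000101255; chromosome 20, 362835 to 397559, plus strand) encodes a pseudokinase that binds ATF4 and CHOP and dampens their activity. It was counted 79 and 90 times in control and 69 and 90 times in SNP libraries. After scaling these were 12.2 and 15.98 CPM against 8.69 and 11.7 CPM, so that the SNP values lay below the control values by a small margin. The log2 fold change of -0.46 (SE 0.235) did not pass, with an adjusted p of 0.156, nor did it in any of the 15 alternatives, where it stayed between -0.69 and -0.25. The value of -0.25 came with composition offsets, and the guanine minus cytosine content of TRIB3 was at percentile 17.2.

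CHAC1 (ENSG00000128965; chromosome 15, 40952962 to 40956519, plus strand) encodes a cytosolic enzyme that breaks down glutathione and is among the most responsive ATF4 and CHOP targets. It had the fewest counts of the 10, 39 and 18 in control and 17 and 12 in SNP libraries. The levels were 6.01 and 3.20 CPM in control and 2.14 and 1.56 CPM in SNP libraries, without overlap, though control b was nearer to SNP a than to control a. CHAC1 had a log2 fold change of -1.32 (SE 0.444; adjusted p = 0.0318), at percentile 0.793 of all genes tested. It was called in 7 of its 13 alternatives. Offsets for length and GC alone gave -1.12 at an adjusted p of 0.0776, and with the replicate block added -1.08 at 0.0728. The call was lost without control a, at -0.79 and an adjusted p of 0.461, without SNP a, at -1.57 and 0.0711, and without SNP b, at -1.11 and 0.158; it was kept without control b, at -1.69 and 0.0112. Its guanine minus cytosine content was at percentile 8.88, and with composition offsets it had -0.94 at an adjusted p of 0.168; over its 13 alternatives that gave an adjusted p it ranged from 0.0112 to 0.461.

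ASNS (ENSG00000070669; chromosome 7, 97852118 to 97872542, minus strand; 14 merged exons), asparagine synthetase, makes asparagine from aspartate and glutamine. It was counted 539 and 1083 times in control a and b and 1518 and 1406 times in SNP a and b. The levels were 83.1 and 192 CPM in control and 191 and 182 CPM in SNP libraries. Control b was level with the SNP libraries, and control a alone was low. ASNS had a log2 fold change of 0.45 (SE 0.205; adjusted p = 0.114) and passed in 4 of 15 alternatives. Without control b it was 1.17 with an adjusted p of 4.1e-10, and without control a it was -0.047 with an adjusted p of 0.878, which are also the ends of the range over its alternatives. Whether ASNS appeared to rise therefore depended on which control library was kept, and the value of -0.047 is too small to be read as a fall. ASNS shares 1985 of its 4455 exonic bases with AC079781.5 on the same strand, which had 27, 12, 37 and 99 counts, and the pseudogene ASNSP1 had 14, 17, 24 and 25, so its level is uncertain where reads of shared sequence were assigned elsewhere.

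PSAT1 (ENSG00000135069; chromosome 9, 78297143 to 78330093, plus strand), phosphoserine aminotransferase, carries out a middle step of serine synthesis. Counting gave 284 and 270 reads without and 281 and 205 with SNP, or 43.8 and 47.9 CPM against 35.4 and 26.6 CPM. Both SNP values lay below both control values. PSAT1 had a log2 fold change of -0.56 (SE 0.154; adjusted p = 0.0097), with a guanine minus cytosine content at percentile 65.6. It kept its call in 13 of 15 alternatives; the exceptions were the fits without control b and without SNP b, where the adjusted p was 0.0785 and 0.0730 and the log2 fold change -0.50 and -0.37, and over all alternatives the adjusted p ranged from 6.4e-04 to 0.0785.

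PHGDH (ENSG00000092621; chromosome 1, 119648411 to 119744226, plus strand; 24 merged exons), phosphoglycerate dehydrogenase, catalyses the first step of serine synthesis. Its levels were 81.4 and 121 CPM in control and 94.3 and 97.1 CPM in SNP libraries, from 528, 683, 749 and 749 counts. The SNP libraries lay between the control libraries. PHGDH had a log2 fold change of -0.078 (SE 0.138; adjusted p = 0.723), and it was 0.23 without control b and -0.35 without control a.

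**Figure D2:**
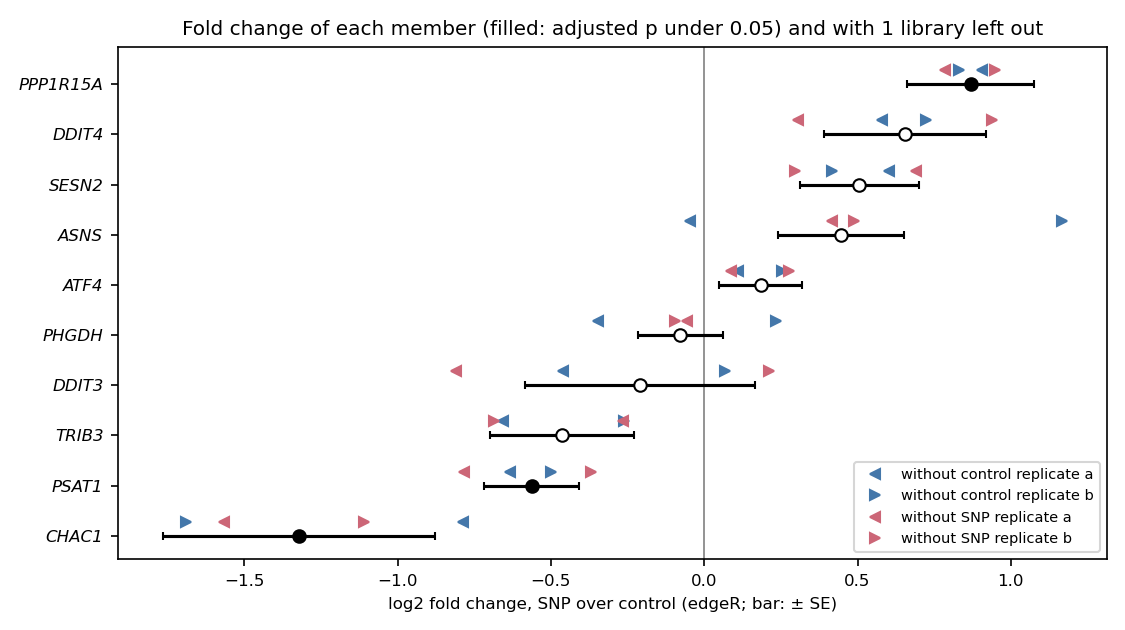
Log2 fold change of each member with its standard error (circles, filled where the adjusted p was under 0.05) and the value with 1 library left out (triangles, blue for a control and red for an SNP library). The ASNS triangles span -0.047 to 1.17, wider than those of any other member, while those of PPP1R15A stay between 0.79 and 0.95.

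In all, the SNP and control values did not overlap for 7 of the 10 members, against 64.0% of all genes tested. The 3 that overlapped were DDIT3, ASNS and PHGDH. By role, 1 of the 3 genes for amino acid synthesis fell and 1 of the 4 feedback and signalling genes rose. CHAC1, alone in its role, fell, and neither transcription factor passed. Of all genes tested, 13.6% rose and 12.6% fell. Differences between members were not tested.

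The libraries of 1 group also differed from each other. On a log2 scale with 0.5 CPM added, control b exceeded control a by 1.205 for ASNS, at percentile 99.3 of all genes tested, by 0.57 for PHGDH at percentile 95.6, and by 0.48 for DDIT3 at percentile 93.7. For these 3 genes the gap between the control libraries was larger than the size of the log2 fold change between groups. CHAC1 was lower in control b, at -0.82 and percentile 2.08, a gap smaller than its log2 fold change. The SNP libraries were within 0.068 of each other for ASNS and 0.042 for PHGDH, but DDIT3 and DDIT4 were lower in SNP b, at -0.91 and -0.60, which are percentiles 1.04 and 2.96. Among all genes tested 50.3% were higher in control b, against 7 of the 10 members and 39 of the 68 other pathway genes described further on (57.4%). By role this was 3 of 3 members for amino acid synthesis, 9 of 11 tRNA synthetase and export genes and 0 of 4 eIF2 kinases. HSPA5, an endoplasmic reticulum chaperone chosen after its values were seen, was also lower in control a, at 113 CPM against 190 in control b.

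**Figure D3:**
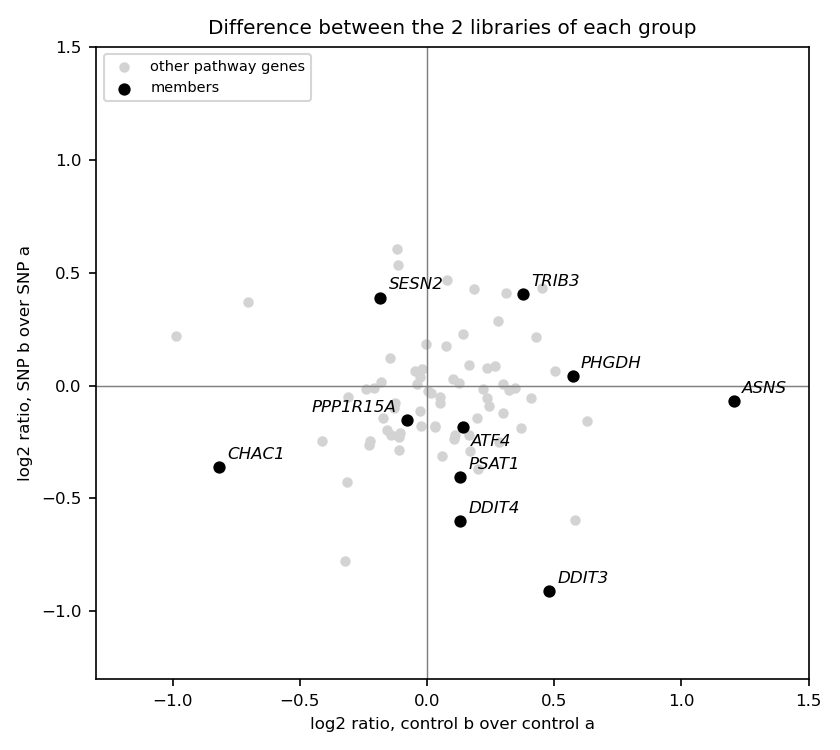
Log2 ratio of library b over library a in the control group (horizontal axis) and in the SNP group (vertical axis) for the members (black) and the other pathway genes (grey). ASNS lies far right at 1.205 and near 0 on the vertical axis, and CHAC1 far left at -0.82.

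Levels of different genes were compared by the deposited TPM, which divides by a gene length. For most genes that length equals the merged exons of all transcripts, not the length of 1 mRNA. It is 9217 bases over 34 transcripts for PHGDH and 2514 bases over 3 for ATF4. In control libraries ASNS stood at 86.9 and 205 TPM, PSAT1 at 93.3 and 104 TPM, ATF4 at 75.7 and 85.2 TPM and PHGDH at 41.2 and 62.5 TPM. ASNS and PSAT1 could not be ordered, since the ASNS libraries lay on both sides of PSAT1, whereas ATF4 was below PSAT1 and PHGDH below ATF4 in both libraries. The order of PHGDH and ATF4 depends on the length used. Before division by length, PHGDH had 81.4 and 121 CPM in control libraries, above ATF4 at 40.9 and 45.1 CPM. The next group was SESN2, DDIT3, TRIB3 and DDIT4, with means of 21.5 ± 1.71, 21.1 ± 5.64, 19.3 ± 3.94 and 17.0 ± 1.39 TPM (SD, n = 2); neighbours in this order overlapped, while both libraries of SESN2, at 22.7 and 20.3 TPM, were above both of DDIT4, at 16.1 and 18.0 TPM. PPP1R15A, at 15.6 and 14.99 TPM, and CHAC1, at 13.6 and 7.38 TPM, were the lowest. In SNP libraries PPP1R15A had 31.3 and 29.4 TPM, above DDIT3 at 25.6 and 13.2 TPM and TRIB3 at 12.6 and 17.8 TPM, and CHAC1 had 5.19 and 3.95 TPM.

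**Figure D4:**
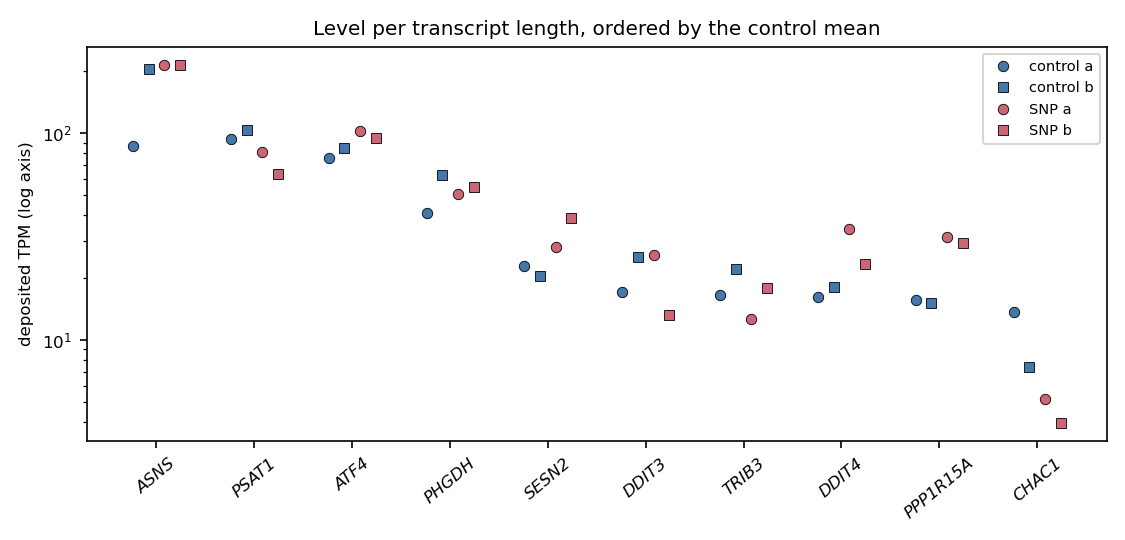
Deposited TPM of each member in every library on a log axis, ordered by the control mean, with circles for library a and squares for library b. Control a of ASNS, at 86.9 TPM, is separate from its other 3 libraries, between 205 and 214 TPM.

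The other genes of the pathway were taken from a list of 70 (kinases, eIF2 factors, partners and known targets), of which FGF21 and NUPR1 did not reach the count filter. Among the other 68, 22 rose and 9 fell, that is 45.6% called against the 26.2% of all genes, with a median log2 fold change of 0.12. Of these, 4, namely CDKN1A, GDF15, BBC3 and TNFRSF10B, are also on the list of p53 targets used below. Without these 4, 18 rose and 9 fell of 64, or 42.2% called, with a median of 0.078. GADD45A, which is not on that list, remained and had the highest log2 fold change of the 64, at 2.61. The list holds only 20 genes, so other p53 targets may remain among the 64. The count of 31 became 18 without control a and 20 with DESeq2's Wald test, and the median became -0.0083 with composition offsets, where 13 rose and 10 fell.

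Upstream of ATF4, none of the 4 eIF2 kinases passed: EIF2AK3 (PERK, the sensor of unfolded protein), EIF2AK4 (GCN2, the sensor of amino acid shortage) and EIF2AK2 (PKR) had log2 fold changes of 0.22, 0.15 and -0.054. With composition offsets EIF2AK3 was at -0.063 and EIF2AK2 passed at -0.24; with RPKM totals EIF2AK2 was at 0.013. Among 5 relay and regulator genes DNAJC3, which encodes an inhibitor of PERK, rose by 0.42 and KIAA0141, the symbol used here for DELE1, which relays mitochondrial stress to the kinase HRI, fell by 0.33; each was called in 8 of 15 alternatives, and neither was called without control a, control b or SNP a. With composition offsets they were 0.063 and -0.092. GCN1, a partner of GCN2, had a log2 fold change of -0.13 and did not pass. Of the 10 genes for eIF2, its exchange factor eIF2B and its phosphatase, 3 rose and 1 fell. That is 40% called, as for the 5 relay and regulator genes, against 26.2% of all genes tested. EIF2S1 and EIF2S3, subunits of eIF2, rose by 0.31 and 0.29, and PPP1CA, a catalytic phosphatase subunit that works with GADD34, fell by 0.65. With composition offsets EIF2S1 was at -0.16, the opposite direction, with an adjusted p of 0.233. PPP1CA was called in 14 of 15 alternatives, EIF2S3 in 10 and EIF2S1 in 6; the call was lost without control b for PPP1CA, without control a or SNP a for EIF2S3, and without control a, control b or SNP a for EIF2S1.

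Of 6 bZIP partners, 3 rose and 1 fell, or 66.7% called against 26.2% of all genes tested. ATF3, a stress-induced factor, rose by 1.23 (SE 0.400; adjusted p = 0.0269) from 12 and 17 counts in control to 55 and 34 in SNP libraries. JUN rose by 0.68 and CEBPG, a dimer partner of ATF4, by 0.57. ATF3 was called in 11 of the 14 alternatives that gave it an adjusted p, JUN in 10 of 15 and CEBPG in 13 of 15. With composition offsets CEBPG was at 0.13 with an adjusted p of 0.365 and JUN at 0.45 with 0.106. The call was also lost without control a or SNP a for ATF3 and JUN, and without control b for JUN and CEBPG.

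Enzymes of amino acid metabolism beyond the members gave 1 gene of 9 that rose and 0 that fell, or 11.1% called against 26.2% of all genes tested. The gene that rose was CBS, which makes cystathionine from homocysteine and serine; its log2 fold change was 0.33 (SE 0.111; adjusted p = 0.0329), it was called in 11 of 15 alternatives, and it was not called without control a, without SNP a or with composition offsets (0.20). PSPH, the last step of serine synthesis, had a log2 fold change of -0.39, ALDH1L2, a mitochondrial folate enzyme, 0.38, and PYCR1, a proline synthesis enzyme, -0.37, with adjusted p of 0.0833, 0.0848 and 0.0948. Of 8 amino acid transporters, 4 fell, 1 rose and 3 did not pass, or 62.5% called against the same 26.2%. SLC1A4, a carrier of alanine, serine and cysteine, fell by 0.84 (SE 0.185; adjusted p = 0.0020), from 34.2 and 25.6 CPM to 18.3 and 15.3 CPM. SLC7A5, the large neutral amino acid carrier, fell by 0.64, and SLC1A5, a glutamine carrier, fell by 0.62. SLC1A5 was called in all 15 alternatives, and SLC1A4 and SLC7A5 in 14 each; SLC1A4 lost its call without control a, and SLC7A5 with composition offsets, at -0.30 and an adjusted p of 0.0555. The transporter genes had a median guanine minus cytosine percentile of 29.7.

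Of 11 genes for tRNA charging and export, 6 rose, 0 fell and 5 did not pass, or 54.5% called against 26.2% of all genes tested. EPRS, the synthetase for glutamate and proline, rose by 0.77 (SE 0.109; adjusted p = 3.5e-05), from 193 and 235 CPM to 395 and 332 CPM. NARS, asparaginyl-tRNA synthetase, rose by 0.72, and XPOT, which exports tRNA from the nucleus, by 0.59. EPRS and XPOT were called in all 15 alternatives and NARS in 14. With composition offsets the values were smaller, 0.35 for EPRS, 0.40 for XPOT and 0.25 for NARS, where NARS had an adjusted p of 0.113. The median guanine minus cytosine percentile of these genes was 74.9, and that of the transporters was lower, as given above.

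The highest log2 fold changes in the pathway list were those of GDF15, GADD45A and CDKN1A. GDF15, a secreted stress cytokine, rose by 2.68 (SE 0.296; adjusted p = 1.9e-06), from 19 and 15 counts to 113 and 169. CDKN1A, the cell cycle inhibitor p21, rose by 2.25, GADD45A, a growth arrest gene, by 2.61, BBC3, the death gene PUMA, by 1.66, and TNFRSF10B, the death receptor DR5, by 1.38. All 5 were called in every one of the 15 alternatives. EIF4EBP1, a translation repressor that ATF4 is known to induce, fell by 0.71 and was called in 14; with composition offsets it was at -0.34 with an adjusted p of 0.109. Of the 5 genes listed as CHOP targets, 3 rose and 1 fell, or 80% called against 26.2% of all genes tested, while DDIT3 itself did not pass. Among those that rose, BBC3 and TNFRSF10B are also on the list of p53 targets. GADD45A, the third, is not on it, but a gene missing from that list of 20 may still be a p53 target. Which response raised these genes was not tested.

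A pair of further lists stood for neighbouring responses. Of 20 endoplasmic reticulum chaperone and quality control genes known from the ATF6 and XBP1 arms of the unfolded protein response, 8 rose and 1 fell. DNAJC3, which rose, is counted both on this list and on the wider pathway list. The median log2 fold change of the 20 genes was 0.27, and HYOU1 rose by 0.96 and MANF by 0.93. With composition offsets 4 of them rose and 0 fell, and the median was 0.063; their median guanine minus cytosine percentile was 88.9. Of 20 p53 targets, 19 rose and 0 fell, with a median of 1.29, and GDF15 and FAS, a death receptor, had the largest values at 2.68 and 2.31. For the 10 members the corresponding count was 1 higher and 2 lower with a median of 0.053, and of all genes tested 13.6% were higher and 12.6% lower. No test compared these lists.

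**Figure D5:**
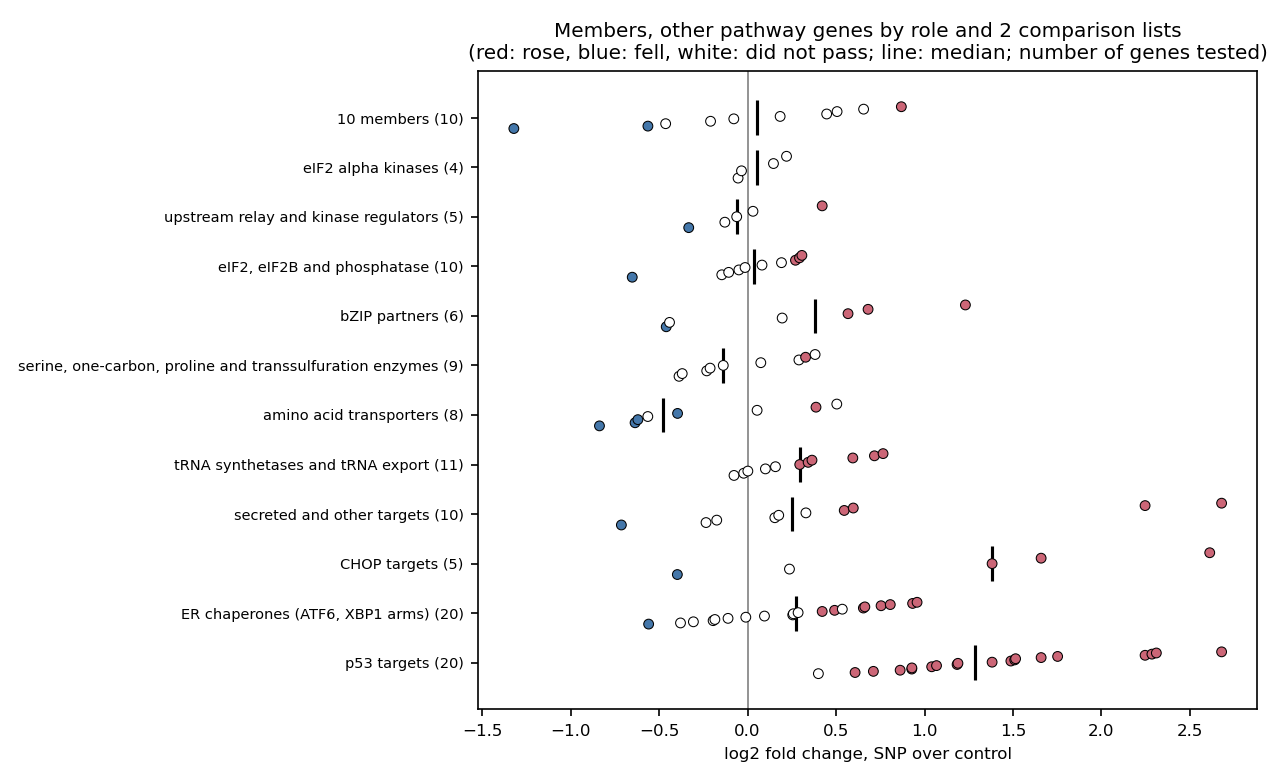
Log2 fold change of every tested gene, by list and role, with red for genes that rose, blue for genes that fell, white for genes that did not pass and a line for the median. The members spread from -1.32 to 0.87 around a median of 0.053, the tRNA synthetase genes lie mostly to the right of 0, the transporters mostly to the left, and the p53 targets reach 2.68.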

How the data were processed

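The authors deposited 1 table per library with raw read counts per gene, TPM and RPKM, per the file headers. Build GRCh38 is named in the submitters' processing notes; the aligner, counter, annotation and use of strand are not given in the sources used here. Each count column was deposited with no normalization. TPM as deposited was scaled by the authors to gene length and library size. RPKM as deposited uses a larger read total than the summed counts. Between 89.9% and 90.0% of counted genes had an implied length within 0.1% of the GENCODE 29 exon length, so positions, lengths and base composition came from that release (57980 of 58243 identifiers).

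Counts were tested with edgeR 4.0.16 in R 4.3.3: filterByExpr (minimum count 10, total 15), TMM, the quasi-likelihood test on all 4 libraries without covariate, p-values adjusted by Benjamini-Hochberg across all genes, threshold 0.05. Standard errors come from the log2 fold change and F. DESeq2 1.42.0, limma 3.58.1 (voom), other filters and scalings, the replicate block, lowess offsets (span 0.5) and leaving out each library were alternatives. Scripts were tested on simulated counts.

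The members and lists were chosen with earlier results of these data known. Named besides the 10 members are up to 3 tested genes per role of the wider list and 2 per comparison list with the largest absolute log2 fold change; genes named by a promoter match, as an overlapping gene or as a list overlap follow from that property, and CBS, HSPA5 and the fibroblast markers were named after their values were seen.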

Additional observations from a re-analysis of the deposited data

How the results depend on the processing

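Across 15 refits the 10 members gave 147 values with an adjusted p: 119 kept direction and side of the threshold, 14 newly passed, 8 no longer passed and 6 changed sign. PPP1R15A kept its call in all of them, and ATF4 and TRIB3 passed in none. PHGDH changed sign with the RPKM totals (log2 fold change 3.6e-04) and with length and GC offsets plus the replicate block (0.011). Leaving out 1 library gave log2 fold changes from -0.35 to 0.23 for PHGDH, -0.81 to 0.21 for DDIT3 and -0.047 to 1.17 for ASNS; the sign changes of DDIT3 came without control b (0.066) and without SNP b. The other 34 named genes gave 506 values: 438 kept direction and side, 13 newly passed, 52 no longer passed and 3 changed sign, namely EIF2S1 (-0.16) and EIF2AK3 (-0.063) with composition offsets and EIF2AK2 (0.013) with RPKM totals.

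The main count of 3861 genes became 2415 with DESeq2, 2224 at an adjusted p under 0.01, 647 with a minimum size of 1 on the log2 scale, and 2447 to 4144 with a library left out. For the members, 3 became 6 with RPKM totals, 5 with the replicate block, 1 with the minimum size and 2 to 3 with a library left out. For the 31 wider pathway genes the values were 20 with DESeq2, 17 at 0.01, 6 with the minimum size and 18 to 32 with a library left out. For the 9 chaperones they were 4 with composition offsets, 0 with the minimum size and 7 to 10 with a library left out, and for the 19 p53 targets 14 with the minimum size, 18 with a mean of at least 50 counts and 19 to 20 with a library left out. The letters a and b do not pair the libraries by any label, and the difference between a and b in control correlated with that in SNP at 0.050 across genes; the replicate block gave 4487 genes, 3860 of them shared with the fit without it. With a library left out, the lone one is assumed to vary like the other group. Causes were not tested. Mean counts under 50 limit CHAC1 and DDIT3, and DDIT4 had 46 and 44 counts in the control libraries.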
